A study of Populus trichocarpa with 18 samples.

Results

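The 5 secondary wall cellulose synthase genes of Populus trichocarpa (black cottonwood) were followed across the 2 wood types and 3 regions of the study. They were chosen by identifier, as Potri.002G257900.v4.1 (CesA4), Potri.006G181900.v4.1 (CesA7-A), Potri.018G103900.v4.1 (CesA7-B), Potri.011G069600.v4.1 (CesA8-A) and Potri.004G059600.v4.1 (CesA8-B). They are 5 of the 11294 genes listed in either count table, and all 5 are among the 4347 listed in both. No annotation matched these identifiers, so the names are those of the selection rule and were not checked against a sequence. The rule uses no measured value, but the genes were chosen with earlier results of these data known.

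All trees were wild type, propagated from cuttings and 5 to 12 months old. The tension wood group came from stems bent to an angle of 90 degrees for 21 days, the treatment that makes broadleaf trees form tension wood. The normal wood group came from debarked stem segments as well, and the labels do not say whether its trees had been bent. Differentiating xylem, the layer in which young wood cells build their walls, was cut by laser from sections 16 µm thick into bands called Region 1, Region 2 and Region 3, with no distance from the cambium given in the labels. Tissue from about 1600000 µm2 went into each library, and the 3 replicates of each wood and region make up the 18 libraries. The libraries count tags from the 3' ends of polyadenylated transcripts. The number of trees behind a replicate is not given, so p-values measure the spread between pooled samples.

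Cellulose is made at the plasma membrane by complexes of cellulose synthase (CesA) proteins, each of which extends a glucan chain from UDP-glucose. In Arabidopsis, CesA4, CesA7 and CesA8 are each needed for the complex that lays down cellulose in the secondary walls of xylem, and loss of any of these classes leaves collapsed vessels. Poplar keeps a pair of CesA7 copies and a pair of CesA8 copies, named A and B here. Fibres of poplar tension wood are known for an inner gelatinous layer that is very rich in cellulose.

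Depth was low and unequal. Totals ran from 8982 to 89358 counts in tension libraries and from 6254 to 20080 counts in normal libraries, so 3 counts, the floor used here, stood for 33.6 to 334 CPM (counts per 1000000 of the library total) in tension wood and for 149 to 480 CPM in normal wood. The woods also stood apart as a whole: across the 4347 shared genes, which are not independent replicates, pairs of tension libraries had a median Spearman correlation of 0.840, pairs of normal libraries 0.603, and pairs of a tension with a normal library 0.0973. The part of this gap, and of the unequal depth, in the results below was not tested. Each table holds 1 wood, so wood and any difference in preparation, sequencing or counting between the tables cannot be told apart. In bulk tissue, fewer cells of a type and less RNA per cell cannot be told apart either. No pair of libraries within a wood held identical values, and none agreed within sampling noise.

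Mean levels of all 5 genes were higher in tension wood in every region, and CesA8-B stood furthest apart in Regions 1 and 2 and CesA7-A in Region 3, by the ratio of mean CPM (10.7, 10.5 and 22.03), CesA7-B in Region 2 aside, which had no normal count. Together the 5 genes made up 1.13% ± 0.07 of all counts of tension Region 1 (SD, n = 3), 1.03% ± 0.06 of Region 2 and 1.09% ± 0.07 of Region 3. The normal wood shares were 0.239% ± 0.025 (SD, n = 3) for Region 1, 0.147% ± 0.050 for Region 2 and 0.159% ± 0.085 for Region 3. The lowest tension library, at 0.971%, lay above the highest normal library, at 0.267%. By counts summed over a wood, CesA8-B ranked 8 of 8878 genes in tension wood and 456 of 6763 in normal wood. CesA7-A ranked 52 in tension wood and 874 in normal wood, CesA4 78 and 355, CesA8-A 172 and 901, and CesA7-B 491 and 1824, in the same order of woods. The normal values rest on 179 counts of the 5 genes in 9 libraries, against 4629 counts in the 9 tension libraries.

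**Figure D1:**
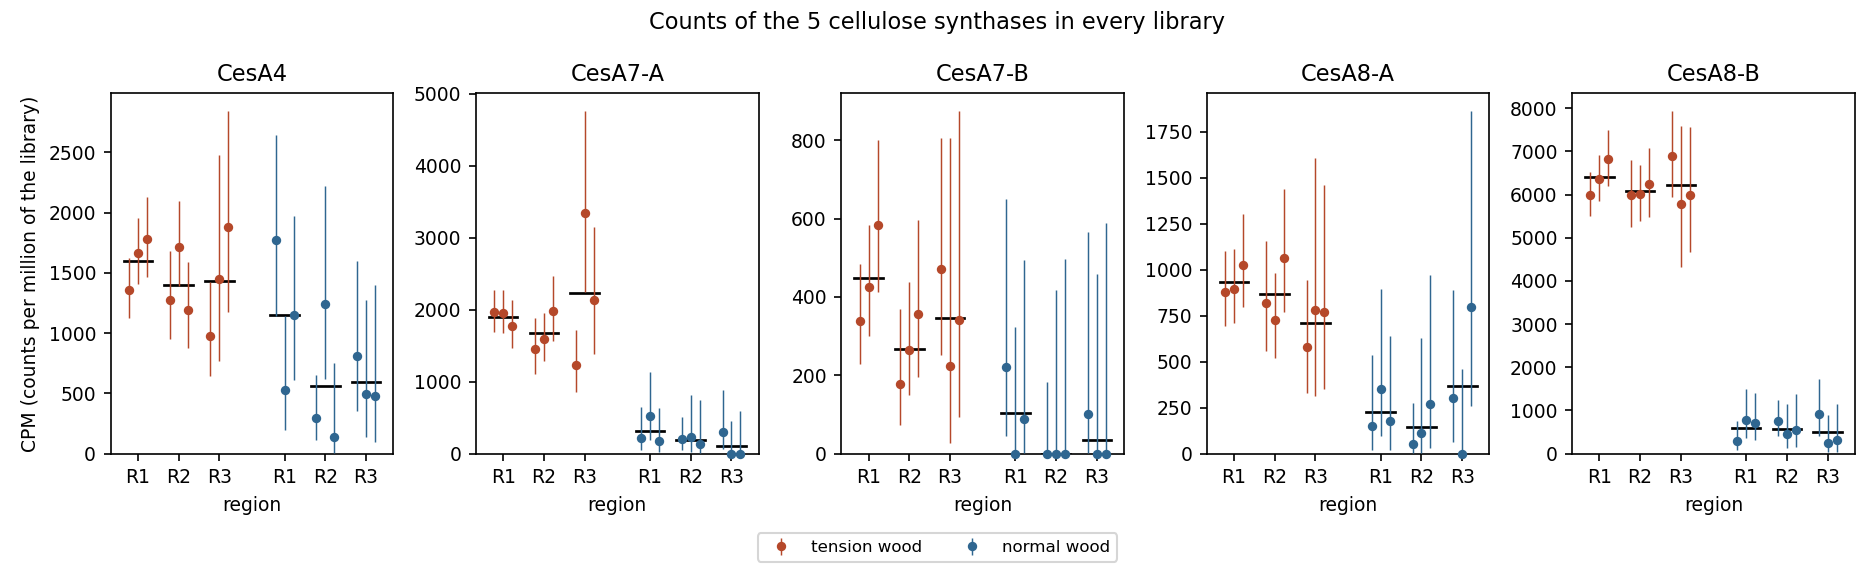
CPM (linear axes that differ between panels) for each gene in every library, by wood and region (R1 to R3). Vertical lines are exact 95% Poisson intervals, which cover at most counting error, and black bars are group means of 3 replicates. CesA8-B lies between 5789 and 6891 CPM in tension wood and between 249 and 914 CPM in normal wood, whereas the CesA4 ranges of the woods overlap in Regions 1 and 2.

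CesA4, which has no second copy among these genes, differed least between the woods over all counts, with a pooled tension to normal ratio of 1.91. Its Region 1 level was 1356, 1667 and 1779 CPM in the tension replicates, against 1777, 524 and 1153 CPM in the normal replicates. In Region 2 it was 1278, 1718 and 1193 CPM in tension wood, against 299, 1243 and 135 CPM in normal wood. In Region 3 it was 979, 1447 and 1880 CPM in tension wood, against 812, 497 and 480 CPM in normal wood. The groups overlapped in Region 1, where normal replicate 1 was close to the highest tension library, and in Region 2, where normal replicate 2 lay above the lowest tension library, but not in Region 3. The ratio of tension to normal CPM over all counts of a region was 1.33 (95% Poisson interval 0.972 to 1.87) in Region 1. It was 2.90 (1.79 to 5.00) in Region 2 and 2.07 (1.16 to 3.91) in Region 3. Such intervals, here and for the genes below, cover at most counting error in the pooled counts and not the spread between replicates. Without normal replicate 2 the ratio of mean CPM in Region 2 was 6.44, against 2.50 with it.

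CesA7-A, the copy of the CesA7 pair with more counts, was high in every tension library and had 0 to 6 counts in each normal library. Its Region 1 level was 1966, 1958 and 1779 CPM in tension wood, against 222, 524 and 177 CPM in normal wood. In Region 2 it was 1456, 1594 and 1980 CPM in tension wood, against 199, 226 and 135 CPM in normal wood. In Region 3 it was 1233, 3340 and 2137 CPM in tension wood, against 305 CPM in normal replicate 1 and 0 in the other normal replicates. The groups did not overlap in any region, and the widest spread within tension wood was that of Region 3, where replicate 2 stood above the others. The pooled ratios were 6.30 (3.49 to 12.7), 8.66 (4.13 to 21.8) and, from 3 normal counts, 14.8 (4.92 to 73.3) in Regions 1 to 3. Without normal replicate 2 the ratio of mean CPM in Region 1 was 9.52, against 6.17 with it.

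CesA7-B, the other copy, had the fewest counts of the 5 genes in both woods. Its Region 1 level was 339, 425 and 583 CPM in tension wood, against 222, 0 and 88.7 CPM in normal wood. In Region 2 it was 179, 266 and 355 CPM in tension wood and 0 in all 3 normal libraries. In Region 3 it was 471, 223 and 342 CPM in tension wood, against 102 CPM in normal replicate 1 and 0 in the other normal replicates. It was thus seen in 9 of 9 tension libraries and 3 of 9 normal libraries, with 161 counts against 5, and the groups did not overlap within any region. The pooled ratio was 3.95 (1.498 to 14.8) in Region 1 and 9.51 (1.51 to 395, from 1 normal count) in Region 3. In Region 2 tension wood was at least 3.23-fold higher, with the normal group set to the floor of 3 counts over its 3 libraries. Without normal replicate 1 the ratio of mean CPM in Region 1 was 10.1, against 4.33 with it. A normal level equal to that of tension wood would have given 9.70 counts in the Region 2 libraries, so the lack of counts bounds the normal level and does not set it at 0.

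CesA8-A, the copy of the CesA8 pair with fewer counts in both woods, was higher in tension wood in Regions 1 and 2. Its Region 1 level was 881, 895 and 1027 CPM in tension wood, against 148, 350 and 177 CPM in normal wood. In Region 2 it was 818, 726 and 1066 CPM in tension wood, against 49.8, 113 and 269 CPM in normal wood. In Region 3 it was 580, 779 and 769 CPM in tension wood, against 305, 0 and 799 CPM in normal wood. The groups were separate in Regions 1 and 2 and overlapped in Region 3, where the 5 counts of normal replicate 3 gave the highest value of that region. The pooled ratios were 4.19 (2.09 to 9.83), 7.74 (2.94 to 28.9) and 2.00 (0.903 to 5.03) in Regions 1 to 3. Without normal replicate 3 the ratio of mean CPM was 4.66 in Region 3, against 1.93 with it, and 10.7 in Region 2, against 6.04 with it.

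CesA8-B held most of the CesA counts of tension wood. Its Region 1 level was 5998, 6368 and 6824 CPM in tension wood, against 296, 787 and 710 CPM in normal wood. In Region 2 it was 5979, 6004 and 6245 CPM in tension wood, against 747, 452 and 539 CPM in normal wood. In Region 3 it was 6891, 5789 and 5983 CPM in tension wood, against 914, 249 and 320 CPM in normal wood. The highest of the 9 normal libraries lay far below the lowest of the 9 tension libraries, and the means of the 3 tension regions, from 6076 to 6397 CPM, were within 1.05-fold of each other. The pooled ratios were 10.96 (7.15 to 17.8), 9.59 (6.35 to 15.2) and 12.01 (6.92 to 22.8) in Regions 1 to 3. Without normal replicate 1 the ratio of mean CPM in Region 3 was 21.9, against 12.6 with it.

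In the order of the 6 group means, the 3 tension groups came before the 3 normal groups for each gene, and neighbours within a wood overlapped in their ranges. A gap without overlap stood between the lowest tension group and the highest normal group for CesA7-A and CesA8-B. For CesA4, CesA7-B and CesA8-A the replicates of those neighbouring groups overlapped too. Separation of the woods was common in these tables. All tension values were above all normal values of the region for 37.5% of 4186 genes in Region 1, 36.5% of 4111 in Region 2 and 25.7% of 3729 in Region 3. The genes without overlap were 4 of the 5 cellulose synthases in Region 1 (all but CesA4), 4 in Region 2 (all but CesA4) and 4 in Region 3 (all but CesA8-A).

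The test across genes asked whether the woods differed beyond the replicate spread. It was edgeR's quasi-likelihood test with TMM scaling, which aims to set libraries level over most genes, and Benjamini-Hochberg adjustment. By the medians given below, the libraries were not level over the genes tested. By that test all 5 genes were higher in tension wood in Region 1, where 52.5% of the 1037 genes tested were called higher and 88% were called in either direction. The log2 fold changes in Region 1 were 4.55 ± 0.31 (SE) for CesA8-B (adjusted p = 3.4e-20), 3.73 ± 0.42 for CesA7-A (adjusted p = 1.1e-11), 3.15 ± 0.50 for CesA8-A (adjusted p = 7.7e-08), 3.05 ± 0.64 for CesA7-B (adjusted p = 1.5e-05) and 1.53 ± 0.35 for CesA4 (adjusted p = 4.8e-05). The median of all tested genes was 1.37, so CesA4 lay only 0.17 above it. The median of the 5 genes was 3.15. Only CesA4 and CesA8-B reached the filter on low counts in the 3 normal libraries of Region 1, and CesA7-A, CesA7-B and CesA8-A entered the test through their tension libraries.

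The CesA4 result in Region 1 depended on the scaling. TMM on the totals of the tested genes set tension values higher by 1.10 (log2) relative to normal ones than library totals did. That shift holds the part of the filter as well as that of TMM. With library totals CesA4 had a log2 fold change of 0.44 and was not called (edgeR, adjusted p = 0.217). It was not called either without normal replicate 2 (0.49, adjusted p = 0.172) or with every library thinned to the total of the smallest (0.71, adjusted p = 0.121). The other genes stayed called higher with library totals in Region 1, beside 44% of all genes, at 3.45 for CesA8-B, 2.63 for CesA7-A, 2.06 for CesA8-A and 1.99 for CesA7-B, against a median of 0.27 over all genes. CesA4 lay between 2.12 and 2.37 when a tension replicate was left out, and only 478 to 484 genes were then tested. Their median lay between -0.46 and -0.30. With a normal replicate left out, 1792 to 1799 genes were tested, with medians of 2.29 to 2.40. How much of the moves with a library left out follows these changes was not tested. Leaving out 1 library moved the fitted value of CesA8-B between 3.5997 (without normal replicate 1) and 5.30 (without tension replicate 1). The bounds were 2.74 (without normal replicate 3) and 4.55 (without tension replicate 3) for CesA7-A and 2.29 (without normal replicate 3) and 3.88 (without tension replicate 1) for CesA8-A. For CesA7-B they were 1.84 (without normal replicate 2) and 3.75 (without normal replicate 1), and it was not tested without any of the tension replicates.

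In Region 2 the test covered CesA4, CesA7-A, CesA8-A and CesA8-B, and all were called higher in tension wood, where 45.7% of 798 genes were called higher and 88.2% in either direction. The log2 fold changes were 4.07 ± 0.39 (SE) for CesA8-B, 3.87 ± 0.48 for CesA7-A, 3.67 ± 0.62 for CesA8-A and 2.27 ± 0.45 for CesA4, against a median of 0.43 over all genes, with edgeR adjusted p-values of at most 2.1e-05. CesA7-A and CesA8-A reached the filter in tension libraries only, CesA4 in 1 normal library and CesA8-B in all 3, and CesA7-B did not pass it. Without a filter CesA7-B was called higher, beside 23.7% of 4111 genes (edgeR, adjusted p = 0.0020), with no fold because all normal libraries were at 0. TMM on the totals of the tested genes set tension values 0.94 (log2) higher than library totals did. With library totals all 4 genes were called higher, beside 41.1% of all genes, from 1.45 for CesA4 to 3.27 for CesA8-B. CesA4 lay at 1.68 without normal replicate 3 and at 2.93 without normal replicate 2, and CesA8-A at 2.98 without normal replicate 1. The medians over all genes in these fits were 1.75, 1.81 and 2.49, in the same order.

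In Region 3, with the smallest totals, only CesA7-A and CesA8-B passed the filter, and both did so through tension libraries alone. Both were higher in tension wood, by 4.41 ± 0.75 (SE) for CesA7-A (edgeR, adjusted p = 3.7e-05) and 3.95 ± 0.39 for CesA8-B (edgeR, adjusted p = 6.7e-07) on the log2 scale. The median of the 217 genes tested was -1.39, with 37.3% called higher and 89.9% called in either direction. The calls of the other genes there depended on the settings. Without a filter, where 466 of 3729 genes were called higher, none of them was called, with edgeR adjusted p-values of 0.0773 for CesA7-B, 0.225 for CesA4 and 0.372 for CesA8-A. Without a filter on library totals, a setting added after the data were seen, 586 of 3729 genes were called higher. There CesA7-B was called (2.89, edgeR, adjusted p = 0.0492), and CesA4 (adjusted p = 0.0843) and CesA8-A (adjusted p = 0.260) were not. CesA4 was called at a minimum count of 3 (1.22, edgeR, adjusted p = 0.0332), beside 294 of 742 genes called higher. It was called too, at 1.64 to 2.15, in the 5 fits with 1 library left out that tested it. Those were all but that without tension replicate 3, and 82.9% to 90.8% of their genes were called in either direction. CesA8-B reached 5.19 and CesA7-A 5.598 without tension replicate 3, where the median over all genes was -1.02. CesA8-B had 4.597 without normal replicate 1, where that median was -0.48. With that normal replicate left out, no CesA7-A count remained in normal wood.

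With the 3 regions summed per replicate, all 5 genes were called higher in tension wood, where 56.1% of 1932 genes were called higher and 90.4% in either direction. The log2 fold changes were 3.39 ± 0.34 (SE) for CesA8-B, 3.05 ± 0.42 for CesA7-A, 2.83 ± 0.63 for CesA7-B, 2.06 ± 0.45 for CesA8-A and 0.92 ± 0.35 for CesA4, against a median of 1.76 over all genes. CesA4 was the only one of the 5 below that median (edgeR, adjusted p = 0.0095). It was not called without normal replicate 2 (0.43, adjusted p = 0.310) or without normal replicate 3 (0.38, adjusted p = 0.313), and its sign turned with the size factors of DESeq2 (-0.093, adjusted p = 0.777), under which 51.7% of the called genes were higher, against 62.0% with TMM. Those size factors also lowered the other summed changes, to 2.38 for CesA8-B, 2.03 for CesA7-A, 1.83 for CesA7-B and 1.03 for CesA8-A, all still called. Leaving out 1 replicate, with all its regions, moved CesA7-B between 1.90 (without normal replicate 2) and 4.13 (without normal replicate 1). Without a normal replicate the median over all genes was 1.61 to 1.98, and without a tension replicate 0.87 to 0.99. CesA7-A had 2.38 without normal replicate 3 and 3.68 without tension replicate 3, CesA8-B 4.03 without tension replicate 3, and CesA4 1.53 and 1.54 without tension replicates 1 and 3.

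**Figure D2:**
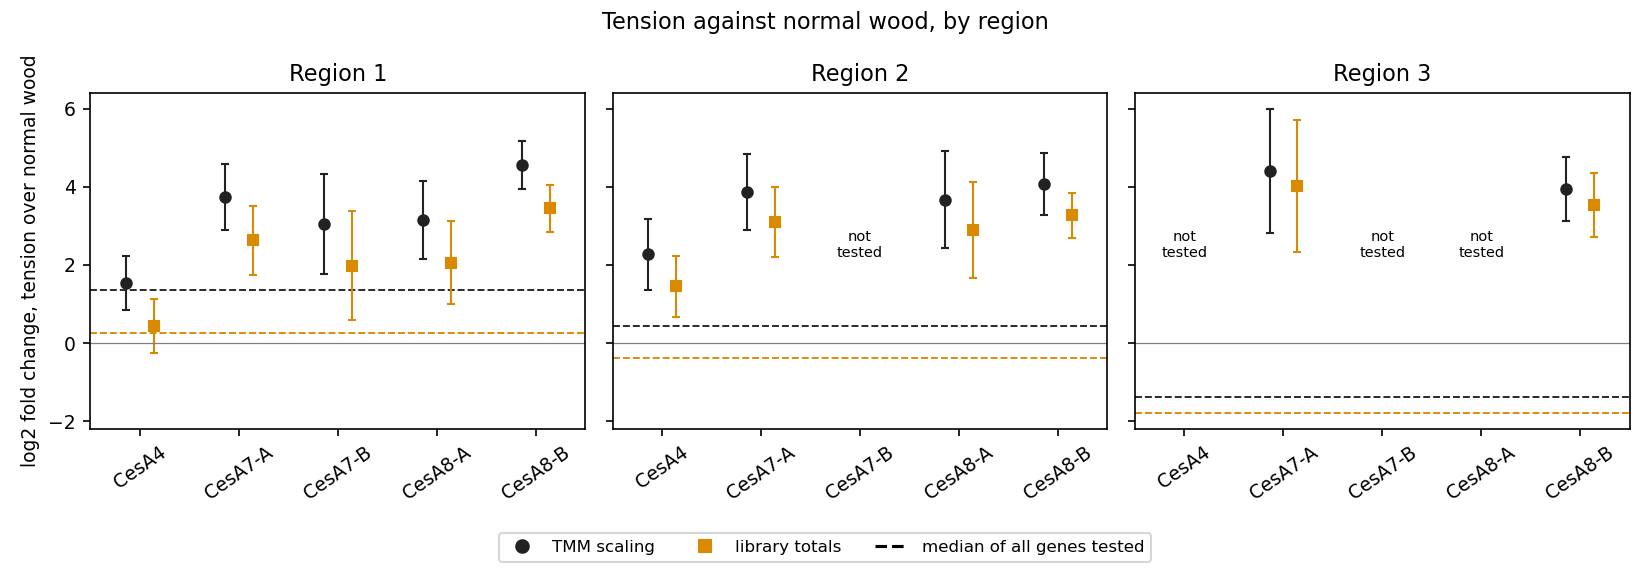
Log2 fold change of tension over normal wood for each gene, in 1 panel per region, under TMM scaling (black circles) and library totals (orange squares), with 95% confidence intervals; dashed lines are the medians of all genes tested under each scaling. CesA4 in Region 1 lies near the median under both scalings, at 1.53 and 0.44, and CesA7-B in Region 2 and 3 genes in Region 3 were not tested.

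The make-up of the CesA counts is given per library, from 104 to 1011 counts in tension libraries and 6 to 36 in normal libraries, so counting error alone spreads the normal shares more widely. CesA8-B had the most counts of the 5 genes in 9 of 9 tension libraries, with 50.0% to 67.9% of the CesA counts. In normal wood it had the most in 4 of 9 libraries, with 11.1% to 57.7%, while CesA4 led in 4 and CesA8-A in the last. CesA4 took 9.64% to 16.9% in tension libraries and up to 66.7% in normal libraries. Its lowest normal share, from 1 of 8 counts in Region 2 replicate 3, lay within the tension range. The other normal shares of CesA4 lay above that range. Over all counts, CesA8-B took 57.8% in tension wood (95% Clopper-Pearson interval 56.4% to 59.2%) and 31.8% in normal wood (25.1% to 39.2%). CesA4 took 13.8% in tension wood (12.9% to 14.9%) and 42.5% in normal wood (35.1% to 50.1%). The remaining shares were 16.8% and 11.7% for CesA7-A, 3.48% and 2.79% for CesA7-B and 8.04% and 11.2% for CesA8-A, tension wood first. The intervals cover at most counting error in the summed counts and not the spread between libraries. Per library the CesA4 share averaged 13.6% ± 2.4 in tension wood and 40.8% ± 20.6 in normal wood (SD, n = 9 each).

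These shares do not depend on the scaling between libraries. The count ratio of CesA8-B to CesA4 ran from 3.18 to 7.04 in tension libraries, with a median of 4, and from 0.167 to 4 in normal libraries, with a median of 0.667. The highest normal ratio came from 4 CesA8-B counts and 1 CesA4 count in replicate 3 of Region 2. This ratio was picked after its values were seen and has no test. End-tag counts were not divided by gene length and each gene may yield tags with its own efficiency, so the shares are read here between woods and not as transcript levels of one gene against another.

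**Figure D3:**
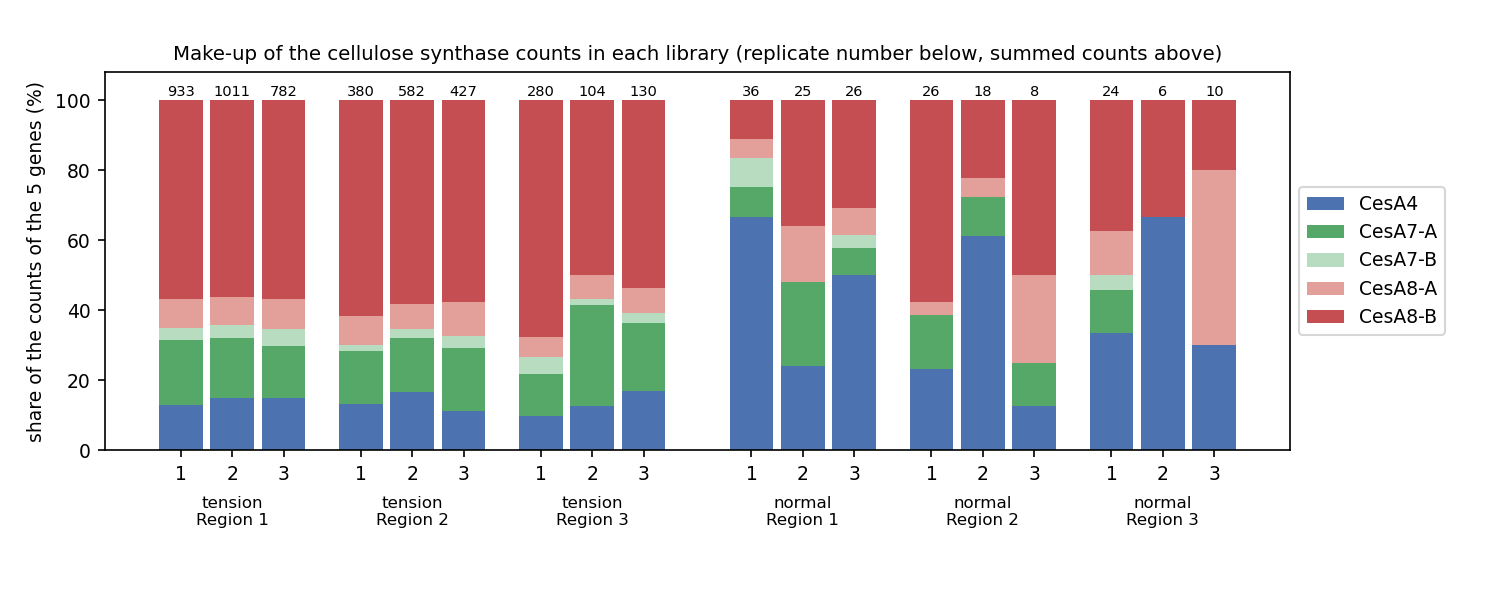
Share of the counts of the 5 genes (%, stacked to 100) that fell to each gene in every library, with the tension libraries left and the normal libraries right; the summed count stands above each bar. CesA8-B takes at least 50.0% in every tension library, and the normal bars are made of 6 to 36 counts each.

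The copies of each pair were not equally represented. CesA7-A made up 82.9% of the CesA7 counts in tension wood (80.3% to 85.2%, 940 counts) and 80.8% in normal wood (60.6% to 93.4%, 26 counts). CesA8-A made up 12.2% of the CesA8 counts in tension wood (11.1% to 13.4%, 3048 counts) and 26.0% in normal wood (16.6% to 37.2%, 77 counts). In tension libraries the CesA8-A share kept between 7.77% and 14.6%, whereas in normal libraries it ran from 0 to 71.4%, the highest value coming from 5 of 7 counts in Region 3 replicate 3.

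No difference in these shares passed the test, which with 3 libraries a group cannot give a p below 0.1. In Region 1 the CesA8-A share was 12.7% ± 0.38 in tension wood and 28.0% ± 7.1 in normal wood (SD, n = 3 each), without overlap (exact permutation test, two-sided, p = 0.10, adjusted over 6 tests 0.30). It was 12.47% ± 1.93 against 19.9% ± 13.5 in Region 2 (exact permutation p = 0.50) and 10.3% ± 2.2 against 32.1% ± 36.2 in Region 3 (exact permutation p = 0.40), tension wood first (n = 3 each). The CesA7-A share was 80.9% ± 5.1 in tension wood and 72.2% ± 25.5 in normal wood in Region 1 (n = 3 each, exact permutation p = 0.60). In Region 2 it was 86.5% ± 2.3 in tension wood and 100% in each normal library, from 7 counts in all (n = 3 each, exact permutation p = 0.10, adjusted 0.30). In Region 3 only 1 normal library had a CesA7 count. Near-identical copies can share tags, and the labels do not say how such tags were counted.

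**Figure D4:**
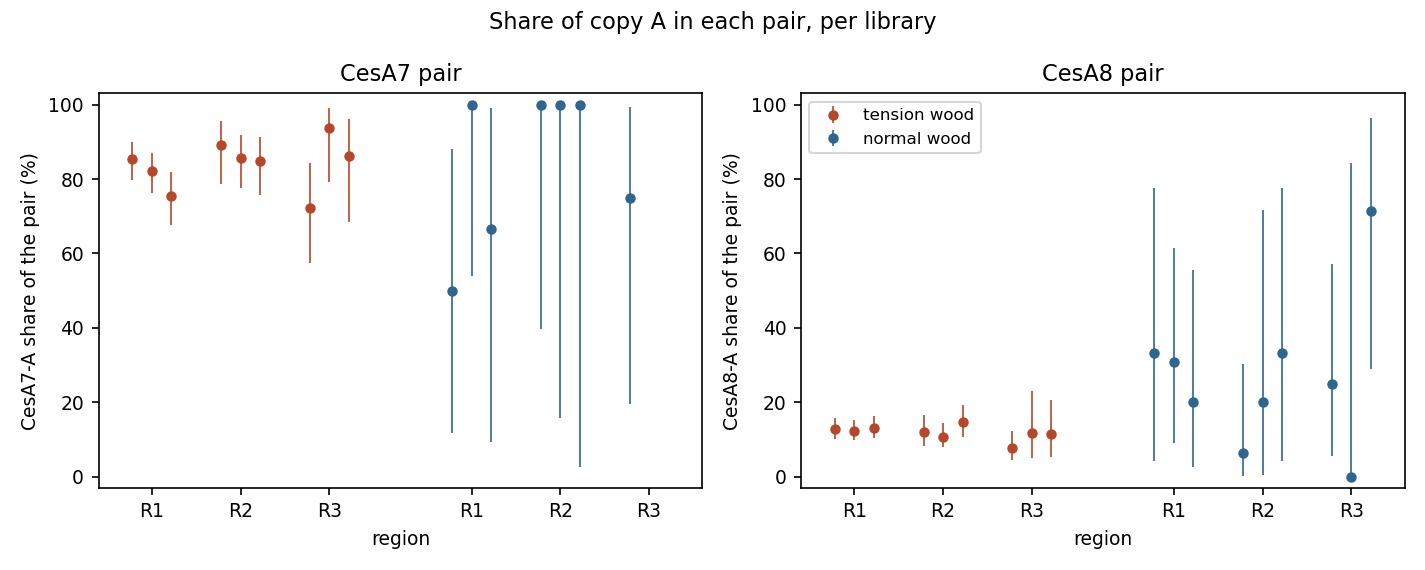
Share of copy A in the counts of each pair (%), per library, with exact 95% Clopper-Pearson intervals; 2 normal libraries of Region 3 held no CesA7 count and have no point. The CesA8-A share stays between 7.77% and 14.6% in tension wood, and the intervals of normal libraries are wide.

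Between regions of tension wood, no cellulose synthase passed the test. All 5 passed the filter, and 0 of 5 were called in the 3 region comparisons by edgeR with the biological replicate as a block, as were 0 of 5 at an unadjusted p under 0.05 and by DESeq2. Of the 1171 genes tested, 2 (0.171%) were called for Region 2 against Region 1, 4 (0.342%) for Region 3 against Region 1 and 0 for Region 3 against Region 2, with 50 (4.27%), 78 (6.66%) and 56 genes (4.78%) at an unadjusted p under 0.05. DESeq2 called 0, 1 and 0 genes. The CesA8-B changes were -0.05 for Region 2 against Region 1 (95% confidence interval -0.27 to 0.18), -0.00 for Region 3 against Region 1 (-0.25 to 0.24) and 0.04 for Region 3 against Region 2 (-0.20 to 0.29) on the log2 scale, the narrowest intervals of the 5 genes. The largest were those of CesA7-B, at -0.70 for Region 2 against Region 1 (-1.43 to 0.02, edgeR unadjusted p = 0.055, adjusted p = 0.971) and 0.59 for Region 3 against Region 2 (-0.39 to 1.56). CesA4 ran from -0.18 to -0.02, CesA7-A from -0.18 to 0.29 and CesA8-A from -0.43 to -0.09. With 3 replicates a region, these intervals leave room for changes that the test would not call.

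Between regions of normal wood only CesA4 had enough counts for the test. It was 1.23 lower on the log2 scale in Region 2 than in Region 1 (95% confidence interval -2.43 to -0.04, edgeR unadjusted p = 0.043, adjusted p = 0.830). Region 3 differed from Region 1 by -1.02 (-2.23 to 0.19, adjusted p = 0.537) and from Region 2 by 0.21 (-1.14 to 1.57, adjusted p = 0.919). Of the 318 genes tested, 0, 1 (0.314%) and 0 were called in these comparisons, with 13, 27 and 21 at an unadjusted p under 0.05, and DESeq2 called none.

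**Figure D5:**
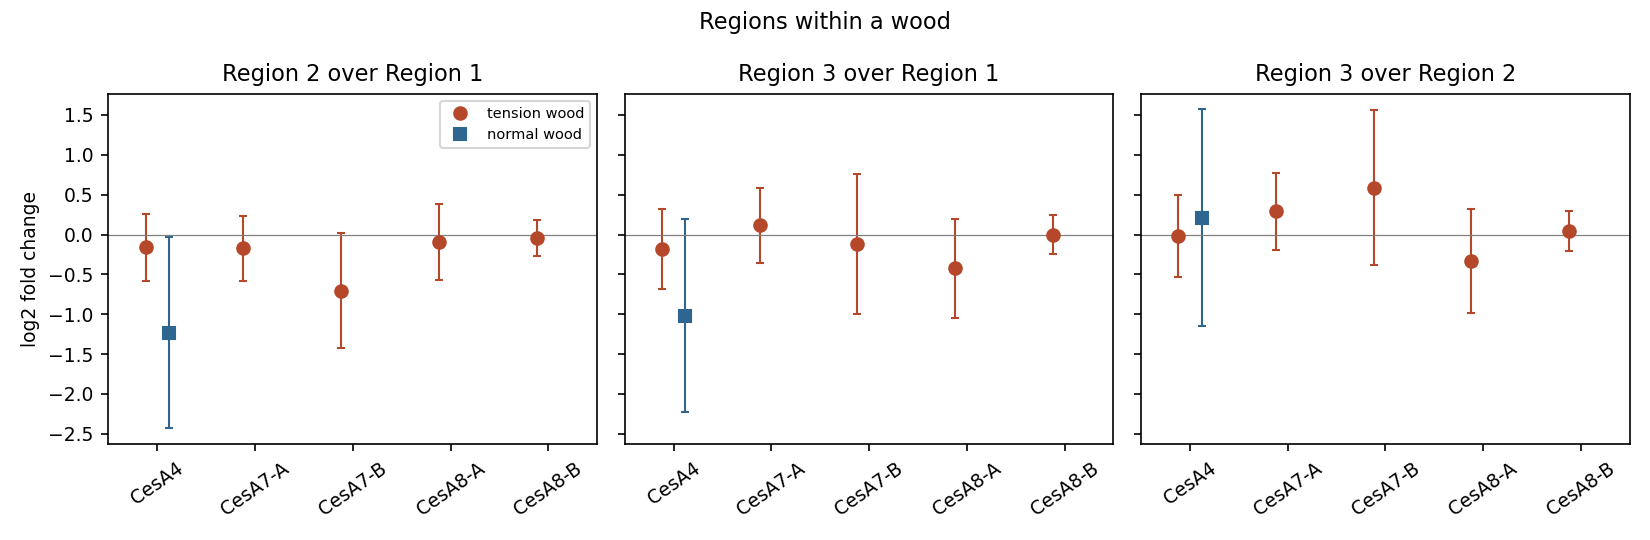
Log2 fold change between regions within tension wood (red circles) and normal wood (blue squares), with 95% confidence intervals from edgeR; in normal wood only CesA4 was tested. Tension wood intervals all include 0, and that of CesA8-B is the narrowest.

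Whether the region changes differed between the woods was tested over all 18 libraries for the 4 genes other than CesA7-B. None was called. For Region 2 against Region 1 the differences (tension change minus normal change, log2) ran from -0.59 for CesA8-B to 0.56 for CesA4, with edgeR adjusted p-values of at least 0.818, and 0 of 573 genes were called (56 at an unadjusted p under 0.05, and 0 by DESeq2). For Region 3 against Region 1 they ran from -2.30 ± 0.94 (SE) for CesA8-A (edgeR, unadjusted p = 0.015, adjusted p = 0.096) to 0.09 for CesA7-A, beside a median of -1.34 over all genes, 8.55% of which were called. That median follows the scaling: with library totals it was -0.17 and 1 gene was called, and CesA8-A differed by -1.05 (adjusted p = 0.836). Without normal replicate 3 in all its regions, which include the library with 5 CesA8-A counts, its difference was 0.34 (edgeR, adjusted p = 0.984). The median over all genes was 0.10 in that fit, so the move of CesA8-A is not that of 1 library alone.

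Other genes of cellulose synthesis were taken from lists of 20 identifiers recalled from published gene models and not checked against an annotation, and were chosen with results of these data in view. Of these, 15 were listed in either table. The accessory list is for proteins that act with the synthases, and 3 of its 6 identifiers were tested in Regions 1 and 2 and 2 in Region 3. All of those tested were called higher in tension wood in each region, beside the 52.5%, 45.7% and 37.3% of all genes called higher in Regions 1 to 3. Their log2 fold changes ran from 2.80 to 5.32 with TMM and from 1.78 to 4.31 with library totals, under which they were called too. Potri.010G141600.v4.1 had the most counts of this list, and its log2 fold change in Region 1 was 2.88 ± 0.24 (SE, edgeR, adjusted p = 4.5e-16). The list summed to 1.04%, 1.06% and 1.01% of counts in tension Regions 1 to 3, and to 0.241%, 0.186% and 0.143% in normal Regions 1 to 3.

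The sucrose synthase list holds 2 identifiers for the enzyme that makes UDP-glucose from sucrose. Both were called higher in tension wood in Regions 1 and 2, and Potri.006G136700.v4.1, the only one tested in Region 3, was called higher there too, beside the same shares of all genes. That gene had the lowest adjusted p of these lists, with a log2 fold change of 4.43 ± 0.24 (SE) in Region 1 (edgeR, adjusted p = 4.9e-25). The other identifier had log2 fold changes of 1.68 in Region 1, at percentile 51.8 of all genes tested, and 1.94 in Region 2, and with library totals it was not called in either (edgeR, adjusted p = 0.270 and 0.0578). The list took 1.498%, 1.42% and 1.32% of counts in tension Regions 1 to 3 and 0.184%, 0.186% and 0.146% in normal Regions 1 to 3.

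Of the 12 identifiers recalled for primary wall cellulose synthases, which build the wall of growing cells, 9 were listed in either table, with 350 counts in tension wood and 18 in normal wood. They took 0.0758%, 0.0944% and 0.0807% of counts in tension Regions 1 to 3 and 0.0167%, 0.0259% and 0.0158% in normal Regions 1 to 3. Only 2 passed the filter, in the sums over regions, and both were called higher in tension wood, beside 56.1% of all genes, by 2.99 (percentile 68.7, edgeR, adjusted p = 7.3e-04) and 2.18 (percentile 54.8, edgeR, adjusted p = 0.0083) on the log2 scale. None of the list members tested in tension wood, 3 accessory and 2 sucrose synthase identifiers, was called between regions, as were at most 0.342% of all genes, and their log2 fold changes ran from -0.71 to 0.60. For the difference between woods in Region 3 against Region 1, Potri.006G136700.v4.1 was called lower (-1.27, edgeR, adjusted p = 0.0457), beside 8.55% of all genes, and was not called with library totals (0.028).

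The 3 genes whose level followed the summed cellulose synthases most closely over the 18 libraries were Potri.006G220700.v4.1, Potri.005G117500.v4.1 and Potri.010G153500.v4.1, with Pearson correlations of log2(CPM + 50) of 0.991, 0.987 and 0.970. No table used here names these genes. They averaged 4112, 3345 and 1043 CPM in tension libraries, against 194, 343 and 87.4 CPM in normal libraries. Over the 9 tension libraries alone the correlations were -0.05, 0.23 and -0.09, and over the 9 normal libraries, where these genes had 19, 34 and 10 counts in all, they were 0.939, 0.894 and 0.779. Over all 18 libraries 89 of the 477 genes compared exceeded 0.9, around a median of 0.742. All these values share the library totals and the depth difference between the woods.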

How the data were processed

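Gene counts came from 18 libraries of laser-captured xylem, 9 of tension and 9 of normal wood. The authors deposited whole-number counts per gene, in 1 table per wood. The tools named per the submitters' processing notes are featureCounts, STAR and UMI-tools. Their versions and settings, the genome build and whether a count is a read or a molecule are not given in the sources used here. Intervals treat each count as a separate molecule, would be too narrow if it is not, and leave out the spread between replicates. A gene without a count in a table is not listed in it. All columns were mapped from the labels and 0 were left unused. From the deposited counts, counts per 1000000 of the library total (CPM) were computed, with exact Poisson and Clopper-Pearson intervals (95%) and exact permutation tests in SciPy 1.17.1 (Python 3.11.15).

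Fits used edgeR 4.0.16 in R 4.3.3 (quasi-likelihood, TMM, filterByExpr with a minimum count of 10, Benjamini-Hochberg adjusted p under 0.05 over all genes tested), and the procedure was tested on simulated data. Tension against normal wood used the 6 libraries of a region, the genes both tables list, and no block. The region comparisons ran over the 9 libraries of a wood, and region by wood over all 18, with the biological replicate as a block, since the sample titles tie 3 regions to 1 replicate. DESeq2 1.42.0, other scalings and filters, thinning and left-out libraries or replicates were alternatives. Of these, library totals without a filter was added after the data were seen. Genes were named by rule: all 5 members, the list identifiers with the lowest adjusted p (at most 4 per comparison) and the 3 nearest genes with at least 200 counts. The members and lists were chosen with earlier results of these data known. The reference gene table (assembly P.trichocarpa_v4.1) matched 0 of 11294 identifiers, so no sequence or position is given.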

Additional observations from a re-analysis of the deposited data

How the results depend on the processing

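Low depth limits normal wood most: a gene there had 0 to 15 counts a library, CesA4 in Region 1 aside. In Regions 1 and 2 and the summed regions, CesA7-A, CesA7-B, CesA8-A and CesA8-B stayed called between the woods in every alternative that tested them. So did CesA4 in Region 2, and CesA7-A and CesA8-B in Region 3. Being tested often hung on tension wood alone. CesA7-B in Region 1, CesA7-A and CesA8-A in Region 2, and both Region 3 genes reached the main filter in no normal library. CesA7-B was tested in 10 alternatives in Region 1, against 15 for the other genes. Thinned to the smallest total, 3 of the 4 genes still tested were called in Region 1, 2 of 2 in Region 2 and 1 of 1 in Region 3. Fewer genes passed the filter then, and 88.4%, 91.8% and 88.0% of all genes tested were called in either direction. In Region 3, all 18 libraries in 1 fit called 4 genes higher, beside 200 of 573 genes, adding CesA4 and CesA8-A. CesA4 was also called there at a minimum count of 3 and in 5 fits with 1 library left out. CesA7-B was called only without a filter on library totals, the setting added after the data were seen. The summed CesA4 change was -0.093 with DESeq2 size factors and -0.096 in the DESeq2 test, and it was not called at a minimum count of 3 (0.75, adjusted p = 0.061), and the cause was not tested. Across woods, deviations of libraries with the same replicate number correlated at -0.046 to 0.063. Regions within a wood, which the titles do tie to 1 replicate, gave medians of -0.029 to 0.068 per replicate. The measure therefore cannot show whether replicates pair across woods. With the replicate block 5, 4, 2 and 5 genes were called in Regions 1, 2 and 3 and the sums, as without it. CesA4 had 1.62 in Region 1 with the block (edgeR, adjusted p = 0.0011).

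Genes called in all, against 913 in Region 1, were 1787 at a minimum count of 3, 2363 without a filter, 1861 without a filter on library totals, 243 thinned, 488 with all 18 libraries and 405 to 1434 with 1 library left out. Against 704 in Region 2 they were 1681, 1735, 1794, 123, 500 and 605 to 1053 in that order, and against 195 in Region 3 they were 620, 1091, 1218, 81, 503 and 207 to 274. Against 1746 in the sums 658 were called thinned. For the difference between woods in Region 3 against Region 1, 49 became 1 with library totals, 3 at a minimum count of 3 and 0 by DESeq2. With 1 replicate left out in all its regions, 3 to 63 were called.

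Some region changes, none of them called, turned their sign. In tension wood, CesA8-B was 0.11 thinned for Region 2 against Region 1. For Region 3 against Region 1, CesA4 was 0.0702 thinned, CesA7-A -0.0149 at a minimum count of 3, and CesA8-B 0.00050 without the block and 0.19 thinned. For Region 3 against Region 2, CesA4 was 0.22 thinned and CesA8-B -0.0551 at a minimum count of 3. In the difference between woods, CesA7-A was -0.0345 without the block for Region 2. For Region 3, CesA4 was 0.74 with library totals, 1.19 at a minimum count of 3 and 0.14 by DESeq2, and CesA8-B was 0.11 with library totals and 0.59 at a minimum count of 3.

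With 1 replicate left out, tension wood ranges that crossed 0 were -0.233 to 0.0231 for CesA8-A (Region 2 against Region 1), then for Region 3 against Region 1 -0.227 to 0.446 for CesA7-A, -0.884 to 0.0811 for CesA7-B and -0.236 to 0.0677 for CesA8-B. For Region 3 against Region 2 they were -0.346 to 0.123 for CesA4, -0.128 to 0.509 for CesA7-A, -0.207 to 0.857 for CesA7-B and -0.144 to 0.0861 for CesA8-B, and in normal wood -0.0393 to 1.47 for CesA4. The difference between woods ran from -0.0801 to 1.05 for CesA7-A and -0.625 to 0.885 for CesA8-B (Region 2), and from -0.640 to 1.28 for CesA4, -0.0631 to 6.42 for CesA7-A, -2.49 to 0.341 for CesA8-A and -1.58 to 1.70 for CesA8-B (Region 3). The upper CesA7-A value has no normal count behind Region 3. In these fits the median over all genes ran from -0.49 to 0.37 (Region 2) and from -1.63 to 0.29 (Region 3). The tension minus normal CesA7-A share in Region 1 ran from -2.41 to 22.6 percentage points.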
